A study of Homo sapiens with 9 samples.

Results

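The 9 genes described here, SERPINB1, SERPINB3, SERPINB4, SERPINB5, SERPINB6, SERPINB7, SERPINB8, SERPINB9 and SERPINB13, were taken by symbol from a table of 62666 genes and belong to clade B of the serpins. SERPINB5 encodes maspin. Of the 9 genes, 8 passed the filter on low counts and entered the test, and SERPINB9 did not. They were followed through 3 related human breast epithelial lines: MCF10A, an immortalised line that does not form tumours, MCF10AT1, its derivative transformed with mutant HRAS and regarded as premalignant, and MCF10Ca1a, a malignant line of the same lineage. Polyadenylated RNA was sequenced in 3 libraries of each line, and the study asked how expression changes along this progression model. All 3 lines were grown in the same medium with horse serum, insulin, EGF, hydrocortisone and cholera toxin, with serum at 5% for MCF10A and MCF10Ca1a and at 2.5% for MCF10AT1. In both comparisons that include MCF10AT1, line and serum cannot be told apart. Each stage is represented by 1 line, so that stage and line cannot be told apart either. The labels do not say whether the 3 libraries of a line came from separate cultures, so the p-values measure the spread between these libraries, which may be technical.

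Serpins are folded with an exposed reactive centre loop that a target protease cuts, after which an inhibitory serpin traps the protease in a stable complex. Clade B members lack a classical secretion signal and act mostly inside cells, where they hold in check proteases that leak from granules or lysosomes. Maspin is an exception: it does not inhibit proteases in this way, and it was found as a gene active in normal mammary epithelium and reduced in breast carcinoma cells.

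The genes lie in 2 clusters. Per GENCODE 29 on GRCh38, SERPINB5 (chr18:63476761-63505085), SERPINB13 (chr18:63586989-63604639), SERPINB7 (chr18:63752935-63805376) and SERPINB8 (chr18:63969925-64019779) are on the plus strand of chromosome 18. SERPINB4 (chr18:63637259-63644298) and SERPINB3 (chr18:63655197-63661963) sit between them on the minus strand. On the minus strand of chromosome 6 lie SERPINB1 (chr6:2832332-2842006), SERPINB9 (chr6:2887266-2903280) and SERPINB6 (chr6:2948159-2972165). SERPINB3 falls inside the span of SERPINB11 on the opposite strand, but SERPINB11 had at most 1 count in a library and the libraries were stranded.

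SERPINB3 and SERPINB4 are near-identical copies, and their sequences are shown because reads can be split wrongly between them. Their coding sequences are both 1170 bases long and differ at 56 bases, an identity of 95.2%. The stretch of 120 coding bases with the most differences, bases 950 to 1069, holds 18 of them and covers the start of the reactive centre loop. It lies at chr18:63655761-63655880 in SERPINB3 and chr18:63637823-63637942 in SERPINB4, both on the minus strand of GRCh38 and read from GENCODE 29, and capitals mark the bases that differ.
SERPINB3: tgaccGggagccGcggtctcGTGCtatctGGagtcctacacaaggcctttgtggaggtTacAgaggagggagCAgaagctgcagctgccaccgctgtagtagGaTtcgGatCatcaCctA
SERPINB4: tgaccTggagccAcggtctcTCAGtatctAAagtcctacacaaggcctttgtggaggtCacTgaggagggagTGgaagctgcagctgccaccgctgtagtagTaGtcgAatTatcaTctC
Of the 31-base words in the main transcript of SERPINB3, 60.4% occur in no transcript of another gene, and for SERPINB4 the share is 59.8%. The 250 bases before the RefSeq starts of the copies are identical at 247 positions (98.8%).

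SERPINB7 has 3 annotated start sites in RefSeq (GRCh38.p14, plus strand), called upstream, middle and downstream here, at positions 63753057, 63775418 and 63777781 of chromosome 18. The middle start lies 22.4 kb beyond the upstream one, and the downstream start 2.36 kb beyond the middle one. They are shown because the lines differed in the start that carried the transcripts, as described with the values of SERPINB7. For each start the part of the 250 bases before it that lies in no annotated exon of the gene is given, at chr18:63752807-63752934, chr18:63775168-63775374 and chr18:63777531-63777776. Capitals mark matches to the AP-1 motif TGAGTCA, searched on both strands.
SERPINB7 upstream start: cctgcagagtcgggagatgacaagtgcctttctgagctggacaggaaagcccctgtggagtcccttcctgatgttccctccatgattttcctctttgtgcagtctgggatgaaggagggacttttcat
SERPINB7 middle start: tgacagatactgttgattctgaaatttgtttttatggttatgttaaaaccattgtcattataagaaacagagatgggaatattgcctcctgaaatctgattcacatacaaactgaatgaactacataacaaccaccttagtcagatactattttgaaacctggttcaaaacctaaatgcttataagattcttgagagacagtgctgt
SERPINB7 downstream start: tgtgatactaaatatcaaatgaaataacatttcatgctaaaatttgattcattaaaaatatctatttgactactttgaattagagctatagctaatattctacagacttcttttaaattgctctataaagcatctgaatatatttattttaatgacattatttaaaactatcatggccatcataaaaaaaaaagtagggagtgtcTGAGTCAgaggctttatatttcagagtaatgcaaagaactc
The match before the middle start falls inside an annotated exon, 32 bases before the RefSeq start, and is given with its flanks at chr18:63775367-63775396.
SERPINB7 middle start, AP-1 match: agtgctgtgctcTGAGTCAtagggaagcca
The match before the downstream start ends 38 bases before it. No match lay in the 250 bases before the upstream start. Over all RefSeq starts, 4.20% of 35116 windows of this length held this motif. Among the other genes of the set, SERPINB13 and SERPINB8 held 1 match each in this window, and SERPINB1, SERPINB3, SERPINB4, SERPINB5, SERPINB6 and SERPINB9 held none. The motif of the Grainyhead-like factors, AACCNGTT, was in none of the 14 windows of the set, against 1.49% of all windows. A match is only a run of letters, and none of these sites was measured.

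The libraries of MCF10Ca1a were the shallowest, with 32.9 to 35.2 M counts each, and the other 6 held 62.9 to 69.5 M. Markers of the labelled epithelial cell type were present. The summed level of 6 epithelial markers was 1597 to 2998 TPM (a level corrected for transcript length and library size) over the 9 libraries, although KRT19 stayed at 7.32 TPM or less on average. Of the fibroblast, leukocyte and endothelial markers, 13 of 17 were under 1 TPM in every library, and CD3E was at 0 in all 9. The 4 that were not were COL1A1, DCN at 27.9 TPM in MCF10AT1, CD14 at 8.62 TPM in MCF10A and PECAM1 at 18.7 TPM in MCF10Ca1a, and their part in the SERPINB results was not tested. In RNA from bulk cultures, fewer cells that express a gene and less RNA per cell cannot be told apart.

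In TPM, the set changed its make-up between the lines more than its total. Summed over the 9 genes, the level was 645 ± 13.2 TPM in MCF10A, 661 ± 34.1 TPM in MCF10AT1 and 531 ± 4.71 TPM in MCF10Ca1a (SD, n = 3 each). Maspin made up 67.6% ± 0.911 of that sum in MCF10A, 69.1% ± 0.315 in MCF10AT1 and 40.9% ± 0.163 in MCF10Ca1a. SERPINB1 went the other way, from 6.36% ± 0.145 through 11.2% ± 0.0327 to 40.5% ± 0.121. The ratio of maspin to SERPINB1 TPM was therefore 10.6 ± 0.379 in MCF10A, 6.16 ± 0.0378 in MCF10AT1 and 1.01 ± 0.00614 in MCF10Ca1a. These sums and shares are descriptions, with no test of their own. They count all transcripts of a gene, coding or not, and depend on the unit. In CPM (counts scaled to library size, with no length correction), MCF10Ca1a had 315 ± 4.26 for maspin and 230 ± 3.17 for SERPINB1.

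**Figure D1:**
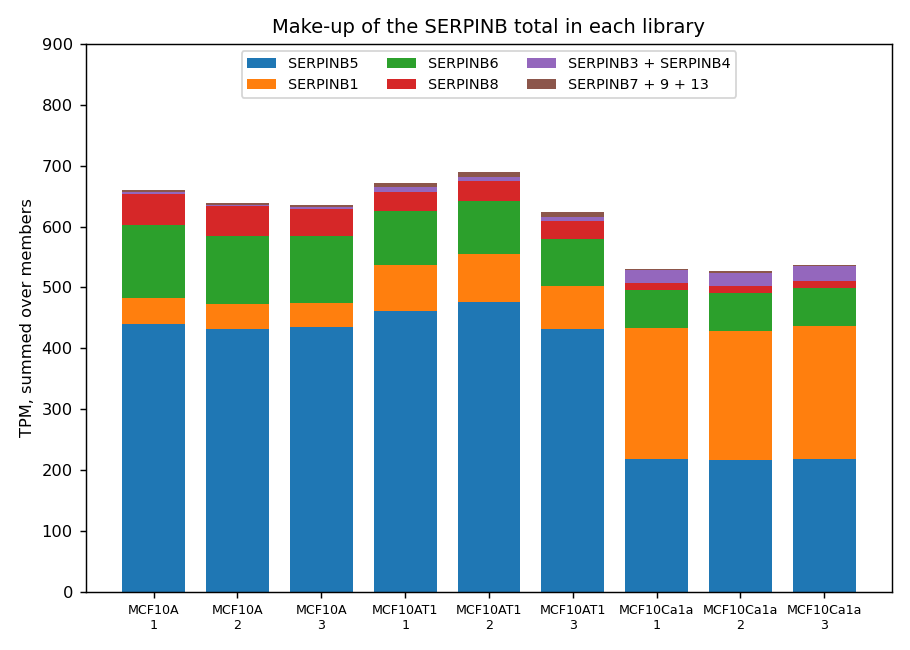
Stacked bars give the TPM of the SERPINB genes in each of the 9 libraries, with the line and replicate number on the horizontal axis. Maspin fills 66.7% to 69.3% of the bar in MCF10A and MCF10AT1 and 40.8% to 41.1% in MCF10Ca1a, where SERPINB1 takes a nearly equal part.

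All 8 tested genes differed in each of the 3 comparisons at an adjusted p under 0.05 (edgeR's quasi-likelihood test, Benjamini-Hochberg over 17910 genes), and for each of them the CPM values (counts scaled to library size with TMM, with no length correction) of the lines compared did not overlap. This has to be read against a high background: 61.6% of all genes tested were called in MCF10AT1 against MCF10A, 78.4% in MCF10Ca1a against MCF10AT1 and 80.9% in MCF10Ca1a against MCF10A. The share of all genes without overlap was not counted, so neither being called nor the lack of overlap says much about the set. Directions and sizes are given below.

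At the first step, MCF10AT1 against MCF10A, 6 genes were higher (SERPINB1, SERPINB3, SERPINB4, SERPINB5, SERPINB7 and SERPINB13) and 2 lower (SERPINB6 and SERPINB8). Of all genes, 29.8% were called higher and 31.8% lower. At the second step, MCF10Ca1a against MCF10AT1, 3 were higher (SERPINB1, SERPINB3 and SERPINB4) and 5 lower, beside 38% and 40.3% of all genes. MCF10Ca1a against MCF10A gave the same split of 3 higher and 5 lower with the same genes, beside 39% and 41.9%. A change of at least 2-fold was seen in 3 of 8 genes at the first step (18% of all genes), 7 of 8 at the second (37.7%) and 7 of 8 in MCF10Ca1a against MCF10A (42.9%). SERPINB1 and SERPINB7 lay just under 2-fold at the first step (log2 1.0 and 0.97), and the count there was 5 of 8 without MCF10A replicate 3 or without MCF10AT1 replicate 1. The median log2 fold change of the 8 genes was 0.98, -1.01 and -0.94 in the 3 comparisons, against -0.00383, -0.0441 and -0.0465 over all genes tested. The comparisons share libraries, so they are not independent of each other.

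**Figure D2:**
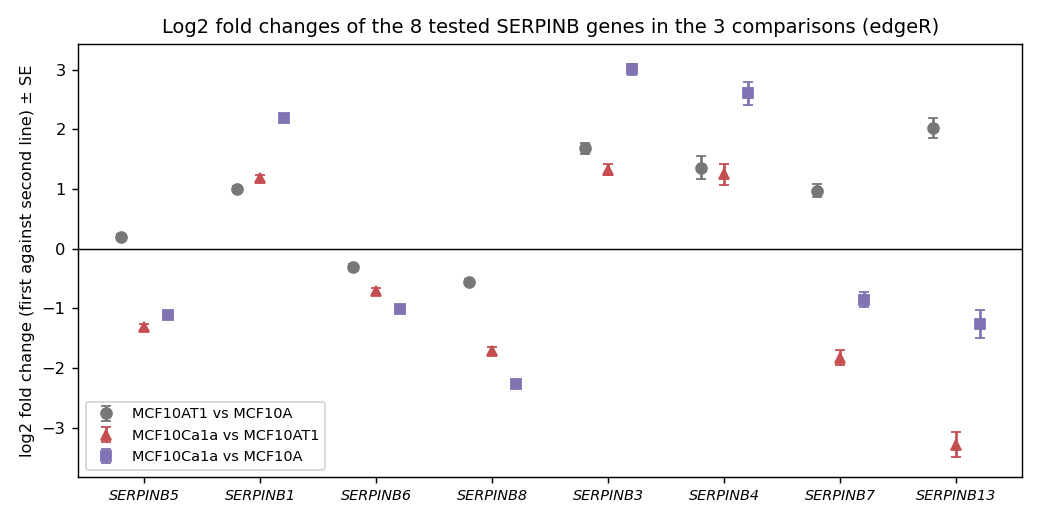
Points give the edgeR log2 fold change of the 8 tested genes, with the standard error as bars, in the 3 comparisons named in the key. SERPINB1, SERPINB3 and SERPINB4 lie above 0 in all 3, SERPINB6 and SERPINB8 lie below 0 in all 3, and SERPINB5, SERPINB7 and SERPINB13 are above 0 at the first step only.

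By TPM summed over all transcripts of a gene, maspin (SERPINB5, ENSG00000206075) was the most abundant gene of the set in every library. By this measure it fell to about the level of SERPINB1 in MCF10Ca1a. Its level was 439.8, 432 and 435 TPM in MCF10A, 462, 477 and 432 TPM in MCF10AT1 and 218, 216 and 219 TPM in MCF10Ca1a. The 3 MCF10Ca1a libraries stood far below all others. By TPM maspin ranked 311 to 318 among all genes in MCF10A, 290 to 301 in MCF10AT1 and 688 to 698 in MCF10Ca1a. The log2 fold change was -1.31 ± 0.0573 (SE) in MCF10Ca1a against MCF10AT1 (adjusted p = 7.89e-11, edgeR) and -1.12 ± 0.0571 against MCF10A (adjusted p = 2.99e-10, edgeR).

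The first step was small for maspin and depended on the unit. In CPM, MCF10A had 652, 683 and 715 and MCF10AT1 had 784, 812 and 753, which did not overlap, and edgeR gave a log2 fold change of 0.20 ± 0.0561 (adjusted p = 0.00792). In TPM, the lowest MCF10AT1 library was level with MCF10A, and limma on log2(TPM + 1) gave 0.07 with an adjusted p of 0.239. Nearly all maspin TPM came from 1 transcript, ENST00000382771, with 99.2% ± 0.249 in MCF10A, 99.2% ± 0.278 in MCF10AT1 and 99.4% ± 0.156 in MCF10Ca1a.

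The genes whose pattern over the 9 libraries lay closest to that of maspin were RPL10, BCS1L, PSAT1, ADH5 and ABHD13. The measure was the root mean square distance between log2 CPM profiles, each centred on the mean of its gene, over 11997 genes. These 5 lay 0.041, 0.0419, 0.0429, 0.0484 and 0.0495 from maspin, against a median of 0.619. RPL10 encodes a protein of the large ribosomal subunit, BCS1L an assembly factor of respiratory complex III, PSAT1 an enzyme of serine synthesis and ADH5 a formaldehyde-oxidising dehydrogenase. Their log2 fold changes in MCF10Ca1a against MCF10AT1 were -1.32, -1.37, -1.39, -1.23 and -1.30, close to that of maspin by construction.

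**Figure D3:**
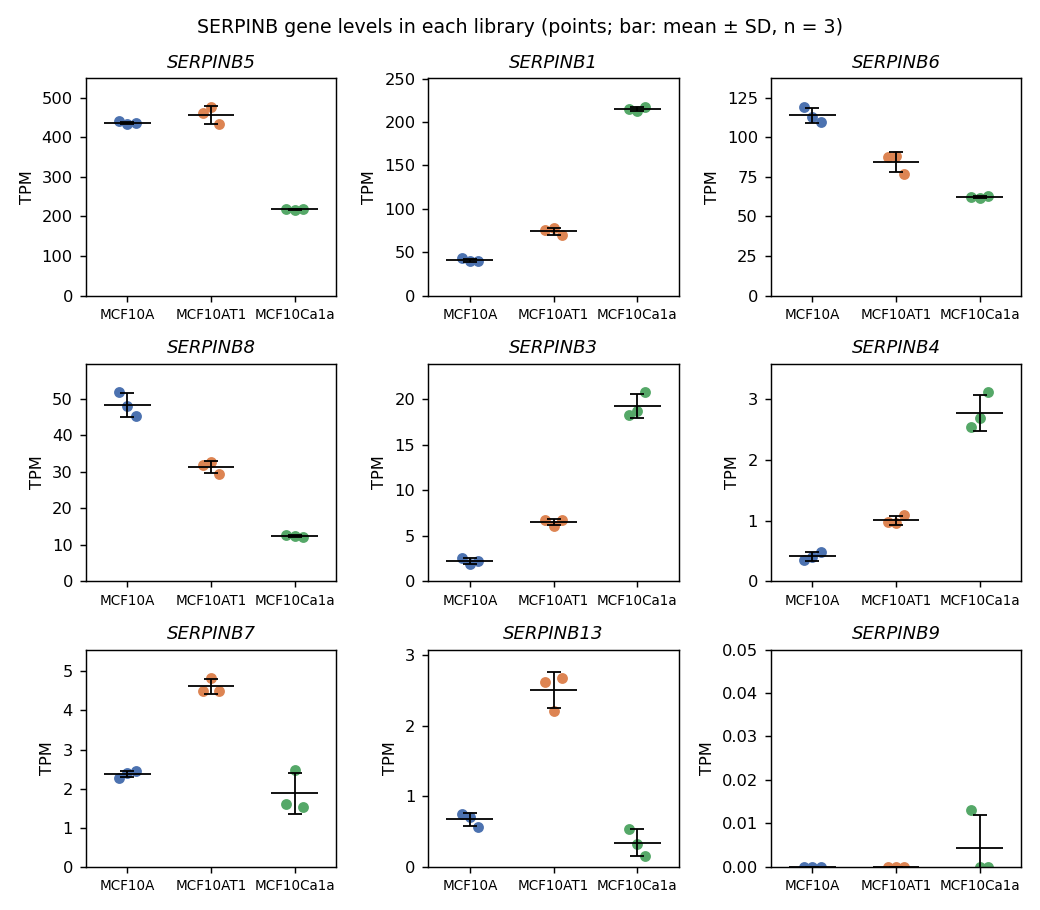
Each panel gives the TPM of 1 SERPINB gene in the 9 libraries as points, by line, with the mean and SD (n = 3) as bars and a vertical axis of its own that starts at 0. SERPINB5 differs little between MCF10A and MCF10AT1 and is lower in MCF10Ca1a, SERPINB1, SERPINB3 and SERPINB4 climb over the 3 lines, and SERPINB7 and SERPINB13 peak in MCF10AT1.

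SERPINB1, SERPINB3 and SERPINB4 rose at both steps. SERPINB1 (ENSG00000021355) inhibits the neutrophil proteases elastase, cathepsin G and proteinase 3. It stood at 43.0, 40.2 and 39.7 TPM in MCF10A, 75.4, 77.5 and 69.7 TPM in MCF10AT1 and 215, 213 and 218 TPM in MCF10Ca1a, with no overlap between lines. Its rank by TPM went from 3323 to 3504 in MCF10A through 1846 to 1934 in MCF10AT1 to 699 to 709 in MCF10Ca1a, just behind maspin there. The log2 fold change was 1.0 ± 0.0498 at the first step (adjusted p = 9.47e-10, edgeR) and 1.18 ± 0.0494 at the second (adjusted p = 5.07e-11, edgeR). MCF10Ca1a stood 4.54-fold above MCF10A in this fit. Of its 5 listed transcripts, only ENST00000380739 is annotated as protein-coding. That transcript carried 73.8% ± 1.75, 75.1% ± 0.536 and 67.6% ± 0.391 of the SERPINB1 TPM in MCF10A, MCF10AT1 and MCF10Ca1a. In MCF10Ca1a it was at 146, 144 and 146 TPM, below the 217, 215 and 217 TPM of the main maspin transcript.

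SERPINB3 (ENSG00000057149), also known as squamous cell carcinoma antigen, inhibits papain-like cysteine proteases such as cathepsins L, S and K. It was low in MCF10A, at 2.52, 1.91 and 2.27 TPM, and reached 6.75, 6.12 and 6.71 TPM in MCF10AT1 and 18.3, 18.7 and 20.8 TPM in MCF10Ca1a. The 3 lines formed 3 separate levels. Its log2 fold change of 3.00 ± 0.0977 in MCF10Ca1a against MCF10A (8.01-fold, adjusted p = 2.87e-12, edgeR) was the largest rise in the set. The steps contributed 1.68 ± 0.0983 (adjusted p = 4.99e-09, edgeR) and 1.32 ± 0.0872 (adjusted p = 5.85e-09, edgeR).

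SERPINB4 (ENSG00000206073) has another reactive loop than its copy and inhibits serine proteases, cathepsin G and mast cell chymase among them. Its estimated counts were 21.95, 27.9 and 37.7 for MCF10A, 74.1, 67.3 and 79.5 for MCF10AT1 and 87.5, 88.9 and 106 for MCF10Ca1a. That was 15.6% ± 3.15, 12.9% ± 0.768 and 12.4% ± 0.381 of the counts of the pair in the 3 lines, so the pair rose with little change in its split. The log2 fold change of SERPINB4 was 1.36 ± 0.197 at the first step (adjusted p = 4.21e-05, edgeR), 1.25 ± 0.174 at the second (adjusted p = 1.49e-05, edgeR) and 2.60 ± 0.193 in MCF10Ca1a against MCF10A (adjusted p = 1.71e-08, edgeR). In limma on log2(TPM + 1), a scale that understates changes of low genes, SERPINB4 had 0.51 at the first step and 1.42 in MCF10Ca1a against MCF10A. With the counts of both copies summed, which does not depend on the split, the values were 1.63 ± 0.0951, 1.31 ± 0.0847 and 2.95 ± 0.0946 (adjusted p = 4.70e-09, 4.67e-09 and 2.50e-12, edgeR).

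SERPINB6 and SERPINB8 fell at both steps. SERPINB6 (ENSG00000124570), a broadly expressed inhibitor of cathepsin G, had 119, 113 and 109.6 TPM in MCF10A, 87.8, 88.0 and 76.9 TPM in MCF10AT1 and 62.1, 61.5 and 62.7 TPM in MCF10Ca1a. The lines did not overlap, and the change was the smallest of the genes that moved one way. Its log2 fold change was -0.31 ± 0.0546 (adjusted p = 0.000247, edgeR) and then -0.71 ± 0.0561 (adjusted p = 4.18e-08, edgeR). Of 25 annotated transcripts, ENST00000380539 carried the largest share, 58.2% ± 3.05, 55.1% ± 3.56 and 46.4% ± 6.61 in the 3 lines.

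SERPINB8 (ENSG00000166401), an inhibitor of the proprotein convertase furin, had 51.8, 48.0 and 45.3 TPM in MCF10A, 32.0, 32.7 and 29.5 TPM in MCF10AT1 and 12.6, 12.4 and 12.04 TPM in MCF10Ca1a. Its log2 fold change was -0.56 ± 0.0515 at the first step (adjusted p = 4.65e-07, edgeR) and -1.71 ± 0.057 at the second (adjusted p = 5.74e-12, edgeR). In MCF10Ca1a against MCF10A it fell by 2.27 on the log2 scale, the largest fall of the set there. Among its transcripts over 1 TPM in a library, ENST00000295211, which starts inside the gene at position 63979808, did not fall with it. It was at 3.49, 2.09 and 1.97 TPM in MCF10A, 3.33, 3.78 and 3.60 TPM in MCF10AT1 and 3.14, 2.48 and 3.33 TPM in MCF10Ca1a. Its share of SERPINB8 TPM was 5.15% ± 1.37, 11.4% ± 0.919 and 24.2% ± 3.90. Transcript shares here and elsewhere are descriptions, and the uncertainty of assigning reads to transcripts was not used.

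SERPINB13 and SERPINB7, both known from stratified epithelium, rose in MCF10AT1 and fell in MCF10Ca1a. SERPINB13 (ENSG00000197641), also called headpin or hurpin, inhibits cathepsins L and K. In MCF10A its 3 libraries had 70, 65 and 65 counts. MCF10AT1 had 274, 255 and 271, whereas MCF10Ca1a had only 20, 16 and 8. As levels these were 0.751, 0.701 and 0.568 TPM, then 2.63, 2.21 and 2.68 TPM, then 0.538, 0.323 and 0.155 TPM. MCF10AT1 was the high line, with no overlap. The log2 fold change was 2.02 ± 0.167 (adjusted p = 1.72e-07, edgeR) and then -3.28 ± 0.211 (adjusted p = 4.47e-09, edgeR). In limma on log2(TPM + 1) these values were 1.07 and -1.40, and with a pseudocount of 0.1 the second was -2.66.

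Between MCF10Ca1a and MCF10A the log2 fold change of SERPINB13 was -1.26 ± 0.238 (adjusted p = 0.000233, edgeR), and it was -0.33 with an adjusted p of 0.0533 in limma on log2(TPM + 1) without a filter, or 0.0153 with one. The transcript ENST00000344731 held 85.1% ± 6.13 of SERPINB13 TPM in MCF10A, 42.9% ± 16.3 in MCF10AT1 and 88.0% ± 20.8 in MCF10Ca1a. In MCF10AT1 a further 40.2% ± 14.9 was assigned to ENST00000269489, which had 174, 106 and 79.0 counts there, at most 10.8 in an MCF10A library and 0 in MCF10Ca1a.

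SERPINB7 (ENSG00000166396), or megsin, is a serpin of the upper epidermis in which inherited loss causes a palmoplantar skin disease. Its counts were 163, 195 and 224 for MCF10A, 365, 398 and 353 for MCF10AT1 and 59, 53 and 57.0 for MCF10Ca1a. The corresponding levels were 2.28, 2.39 and 2.45 TPM, 4.50, 4.83 and 4.51 TPM, and 1.62, 2.48 and 1.54 TPM. MCF10AT1 stood above both other lines. MCF10A and MCF10Ca1a overlapped in TPM through MCF10Ca1a replicate 2 alone, where 0.953 TPM came from 6.695 estimated counts of the transcript ENST00000447428. In CPM these lines did not overlap, at 2.54 to 3.21 in MCF10A and 1.58 to 1.65 in MCF10Ca1a. The log2 fold change was 0.97 ± 0.107 at the first step (adjusted p = 3.08e-06, edgeR) and -1.83 ± 0.122 at the second (adjusted p = 7.03e-09, edgeR), the latter -0.98 in limma on log2(TPM + 1). In MCF10Ca1a against MCF10A it was -0.86 ± 0.127 (adjusted p = 2.46e-05, edgeR), but -0.24 with an adjusted p of 0.0812 on that scale.

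The start sites printed above for SERPINB7 had different transcript levels in the 3 lines, given here with no test. Transcripts from the upstream start were at 0 TPM in all 6 libraries of MCF10A and MCF10AT1, and at 1.62, 1.53 and 1.08 TPM in MCF10Ca1a, from 59, 46.3 and 39.9 estimated counts. By counting error alone, a count of 0 allows up to 3 counts in a library. Errors in assigning reads to the transcripts of this gene can add to that and were not estimated. The middle start gave 1.36, 2.39 and 2.45 TPM in MCF10A, 1.17, 1.76 and 1.45 TPM in MCF10AT1, and 0, 0 and 0.0854 TPM in MCF10Ca1a. Transcripts from the downstream start were at 0.917, 0 and 0 TPM in MCF10A, 3.34, 3.07 and 3.06 TPM in MCF10AT1, and 0, 0.953 and 0.374 TPM in MCF10Ca1a. By these estimates the gain of MCF10AT1 over MCF10A lay in the downstream start, and most of what was left in MCF10Ca1a came from the upstream one.

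As shares of SERPINB7 TPM, the upstream start held 77.3% ± 20.2 in MCF10Ca1a, the middle start 86.6% ± 23.2 in MCF10A and the downstream start 68.5% ± 5.30 in MCF10AT1. The downstream share in MCF10A rested on replicate 1 alone, and its mean was 0 without that library. The upstream share in MCF10Ca1a ran from 61.6% to 100% between libraries.

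**Figure D4:**
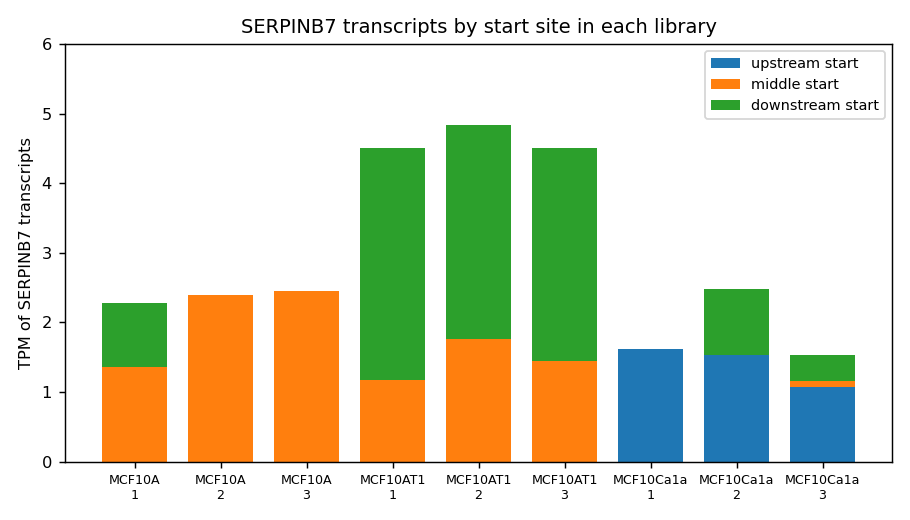
Stacked bars give the TPM of SERPINB7 transcripts by annotated start site in each library, with line and replicate number on the horizontal axis. The upstream start appears in the 3 MCF10Ca1a libraries alone, at 1.08 to 1.62 TPM, and the downstream start is the larger part of each MCF10AT1 bar.

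SERPINB9 (ENSG00000170542), the inhibitor of granzyme B, was not detectable at this depth: it had 1 count in MCF10Ca1a replicate 1 and 0 counts in the other 8 libraries. The rest of clade B was also mostly silent. SERPINB10, SERPINB11 and SERPINB12 had at most 5 counts in a library. SERPINB2, or plasminogen activator inhibitor type 2, an inhibitor of urokinase that lies between SERPINB7 and SERPINB8, was the exception. It had 1.03, 1.33 and 1.36 TPM in MCF10A, 4.68, 4.97 and 4.87 TPM in MCF10AT1 and 4.71, 4.92 and 4.87 TPM in MCF10Ca1a. Its log2 fold change was 2.09 ± 0.127 at the first step (adjusted p = 6.95e-09, edgeR) and -0.25 ± 0.118 at the second (adjusted p = 0.0699, edgeR). That second-step change was called without MCF10A replicate 1 and without MCF10A replicate 3, which enter the shared spread.

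By TPM, the order of the set in MCF10A was SERPINB5, SERPINB6, SERPINB8, SERPINB1, SERPINB7, SERPINB3, SERPINB13 and SERPINB4. SERPINB7 and SERPINB3 were neighbours whose values overlapped in MCF10A. In MCF10AT1 the order was SERPINB5, SERPINB6, SERPINB1, SERPINB8, SERPINB3, SERPINB7, SERPINB13 and SERPINB4, with SERPINB6 and SERPINB1 overlapping. The order in MCF10Ca1a was SERPINB5, SERPINB1, SERPINB6, SERPINB3, SERPINB8, SERPINB4, SERPINB7 and SERPINB13. SERPINB5 and SERPINB1 were neighbours whose values overlapped there, at 218 ± 1.12 and 215 ± 2.41 TPM.

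Of 12 proteases that clade B serpins are known to inhibit, 7 passed the filter. At the first step 1 was called higher and 1 lower, at the second 4 and 3, and in MCF10Ca1a against MCF10A 4 and 3. Of all genes, 61.6%, 78.4% and 80.9% were called in these comparisons. Without MCF10AT1 replicate 3, 5 of the 7 were called at the first step. CTSS, the cysteine protease cathepsin S, had 1.83 ± 0.0848 TPM in MCF10A, 1.497 ± 0.212 TPM in MCF10AT1 and 37.2 ± 1.82 TPM in MCF10Ca1a. Its log2 fold change in MCF10Ca1a against MCF10A was 3.72 ± 0.0717 (adjusted p = 2.14e-14, edgeR). CTSV, or cathepsin V, rose from 20.6 ± 2.50 to 59.0 ± 0.523 TPM between these lines (log2 fold change 1.37 ± 0.0698, adjusted p = 2.99e-10, edgeR). CTSL, or cathepsin L, fell from 97.0 ± 16.3 to 51.9 ± 0.685 TPM (log2 fold change -1.01 ± 0.0868, adjusted p = 9.05e-08, edgeR). Thus in MCF10Ca1a the cysteine protease inhibitor SERPINB3 was higher beside higher cathepsin S and V and lower cathepsin L.

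DNA methylation of the maspin promoter is a known feature of cells that have silenced the gene, and the 3 DNA methyltransferases DNMT1, DNMT3A and DNMT3B were all tested. They belong to a longer list of maspin regulators and partners and were picked from it after their values were known. DNMT3B, a de novo DNA methyltransferase, had 2.33 ± 0.405 TPM in MCF10A, 0.75 ± 0.0315 TPM in MCF10AT1 and 0.04 ± 0.0212 TPM in MCF10Ca1a (log2 fold change -6.20 ± 0.195 in MCF10Ca1a against MCF10A, adjusted p = 2.02e-12, edgeR). DNMT1, the maintenance enzyme, fell by 1.07 on the log2 scale in that comparison (adjusted p = 1.37e-09, edgeR), with a wide spread in MCF10A (46.4 ± 14.6 TPM). DNMT3A rose by 0.56 ± 0.138 (adjusted p = 0.00201, edgeR). Maspin was still at 218 ± 1.12 TPM in MCF10Ca1a. Promoter methylation was not measured, and a link between these enzymes and maspin was not tested.

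Genes of squamous differentiation, the programme in which several of these serpins are known, did not move one way. Of 19 listed, 14 were tested: 2 were called higher and 7 lower at the first step, 7 and 5 at the second, and 5 and 7 in MCF10Ca1a against MCF10A, beside 61.6%, 78.4% and 80.9% of all genes called in either direction. In that last comparison IVL, the envelope protein involucrin, had a log2 fold change of -4.48 ± 0.223 (adjusted p = 2.30e-10, edgeR), with 1.79 ± 0.409 TPM in MCF10A and 0.0852 ± 0.0358 TPM in MCF10Ca1a. KRT16, a keratin of activated keratinocytes, had one of 3.03 ± 0.0649 (adjusted p = 5.54e-14, edgeR), from 9.48 ± 1.29 to 84.6 ± 2.92 TPM. SPRR2D, a small proline-rich envelope protein, had one of 2.63 ± 0.0905 (adjusted p = 5.05e-12, edgeR), but reads can be split between the near-identical SPRR2 genes.

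Neighbours that share the chromosomal position of the clusters were taken as the tested genes that start within 1 Mb of the first or last SERPINB gene. Of 7 such genes at the chromosome 18 cluster, 3 were called higher and 2 lower at the first step, 1 and 3 at the second, and 0 and 3 in MCF10Ca1a against MCF10A, where 61.6%, 78.4% and 80.9% of all genes were called. BCL2, an inhibitor of apoptosis upstream of maspin, had a log2 fold change of -1.45 ± 0.11 in that last comparison (adjusted p = 2.12e-08, edgeR). KDSR, an enzyme of ceramide synthesis between BCL2 and maspin, had -1.14 ± 0.0553 (adjusted p = 1.80e-10, edgeR). VPS4B, an ATPase of the ESCRT machinery that lies closest to maspin, had -0.13 ± 0.0504 (adjusted p = 0.0301, edgeR).

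The changes within this cluster are given in chromosome order, and their relation to position was not tested. From SERPINB5 to SERPINB8 along the chromosome, the log2 fold changes in MCF10Ca1a against MCF10A were -1.12 for SERPINB5, -1.26 for SERPINB13, 2.60 for SERPINB4, 3.00 for SERPINB3, -0.86 for SERPINB7, 1.84 for SERPINB2 and -2.27 for SERPINB8. Genes that rose thus lay between genes that fell in this comparison. At the first step the values in the same order were 0.20, 2.02, 1.36, 1.68, 0.97, 2.09 and -0.56, so only SERPINB8 fell.

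At the chromosome 6 cluster, SERPINB1 rose and SERPINB6 fell in MCF10Ca1a against MCF10A. Of 20 neighbours there, 8 were called higher and 7 lower at the first step, 6 and 7 at the second, and 10 and 7 in MCF10Ca1a against MCF10A, beside the same 61.6%, 78.4% and 80.9% of all genes. FAM50B had 3.14 ± 0.368 TPM in MCF10A and 0.18 ± 0.0679 TPM in MCF10AT1 and was listed at 0 in all 3 MCF10Ca1a libraries. SLC22A23, a solute carrier, had a log2 fold change of -3.87 ± 0.198 (adjusted p = 3.05e-10, edgeR), and LINC01600, a long noncoding RNA at 0.155 TPM or less on average, one of 2.50 ± 0.634 (adjusted p = 0.00241, edgeR). Copy number was not measured, and its part in these changes was not tested.

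**Figure D5:**
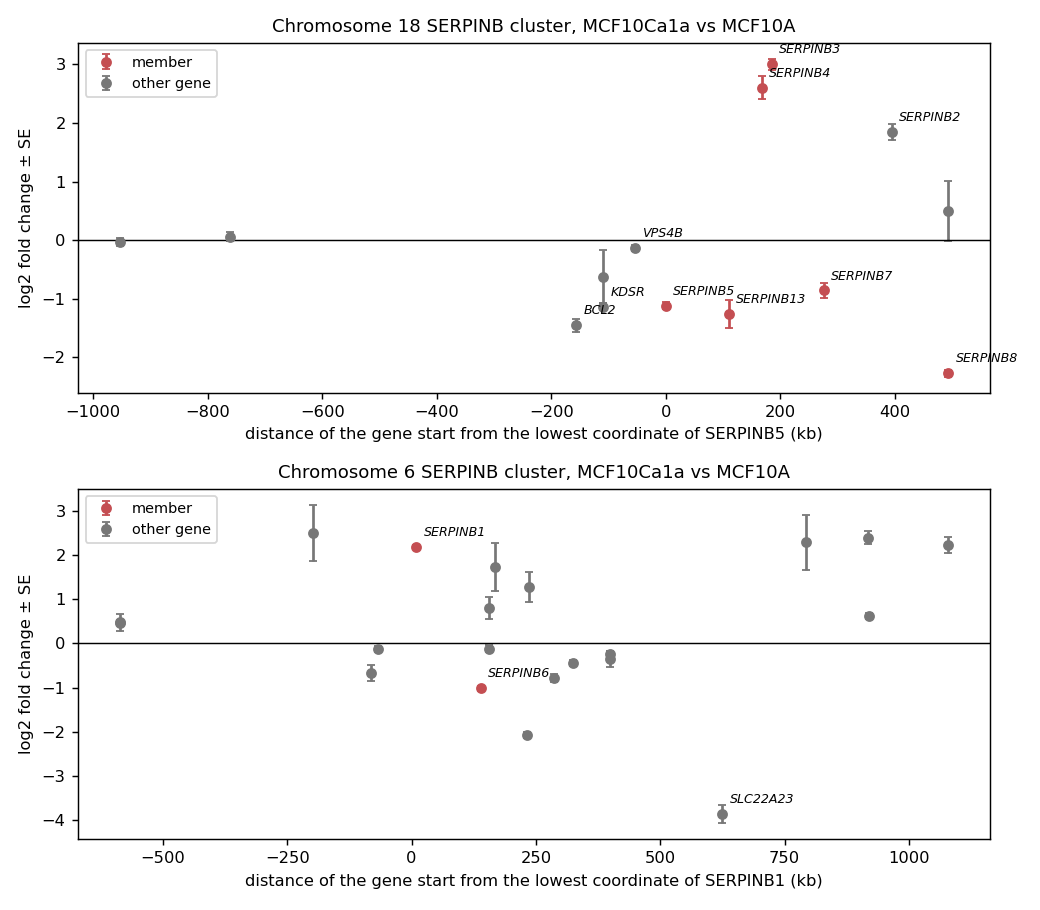
Points give the edgeR log2 fold change in MCF10Ca1a against MCF10A, with the standard error as bars, of the tested genes at both clusters against the distance of the gene start in kb. FAM50B, at 0 in MCF10Ca1a, is left out, and SERPINB genes that rose and fell lie beside each other in both panels.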

How the data were processed

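The authors deposited 6 tables made from polyadenylated RNA of 9 libraries: expected (estimated) counts per gene, length-scaled and scaled counts, TPM per gene, and counts and TPM per transcript. Salmon and hg38 are named in the submitters' processing notes, and the version and annotation are not given in the sources used here. Columns were matched to libraries by name.

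Estimated counts, as deposited, were rounded and filtered with filterByExpr (minimum count 10, minimum total 15), which left 17910 of 62666 genes. They were tested with edgeR 4.0.16 in R 4.3.3 (quasi-likelihood, TMM, all 9 libraries in 1 fit, Benjamini-Hochberg threshold 0.05). A standard error is the log2 fold change over the root of F. Deposited TPM values serve as levels, and limma 3.58.1 tested them on a log2 scale as an alternative. Others were DESeq2 1.42.0 (its size factors and its Wald test), no filter, the length-scaled and scaled counts, a replicate block, leave-one-out fits over the 9 libraries, and fits on 2 lines at a time. The scripts were tested on simulated data. Positions come from GENCODE 29 on GRCh38, which matched 58227 genes (92.9%), and upstream sequences from RefSeq on GRCh38.p14.

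Depth was 32.9 to 69.5 M counts, and floors of 3 counts cover counting error only. The members and lists were chosen with earlier results of these data known. Beside the members, the text names at most 3 called genes per list or cluster, by largest change in MCF10Ca1a against MCF10A (for lists, averaging 100 counts or more in the higher line), the other clade B serpins, and the 5 genes most like SERPINB5. Replicate numbers did not pair libraries: deviations of same-numbered libraries correlated from -0.136 to 0.160. Some genes of the lists are not reported here.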

Additional observations from a re-analysis of the deposited data

How the results depend on the processing

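Under 19 alternatives, 449 of 456 fits of single SERPINB genes kept direction and side of the threshold, 7 lost the call and 0 changed sign. All 7 were limma fits on TPM. For SERPINB5 in MCF10AT1 against MCF10A the log2 change was 0.07 in all 3 such fits (adjusted p = 0.239 to 0.299). For SERPINB7 in MCF10Ca1a against MCF10A it was -0.24, -0.35 and -0.24 (adjusted p = 0.0779 to 0.150), and for SERPINB13 -0.33 without a filter (adjusted p = 0.0533). The cause was not tested. The fit with a pseudocount of 0.1 placed the median log2 change of all genes at 0.21 in MCF10Ca1a against MCF10AT1, 0.10 in MCF10Ca1a against MCF10A and -0.11 in MCF10AT1 against MCF10A. The count of SERPINB genes at 2-fold or more in MCF10Ca1a against MCF10A, 7, was 4 in limma on log2(TPM + 1). Counts under left-out libraries and other settings at this fold were chosen after seeing the data.

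Of the target proteases, 2 were called in MCF10AT1 against MCF10A, but 1 with the length-scaled counts, the scaled counts or limma on unfiltered TPM. With single libraries left out the count ran from 2 to 5, the latter without MCF10AT1 replicate 3. SERPINB2 in MCF10Ca1a against MCF10AT1 was not called, but was (1 gene of that list) without a filter, with only the 2 lines compared, and without MCF10A replicate 1 or 3, so that the count ran from 0 to 1.

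The replicate number as a block, which is no pairing by the labels, left 8, 8 and 8 SERPINB genes called and gave 1.64, 1.31 and 2.95 for the summed copies. Of 9 libraries, 4 correlated best with one of their own number. For SERPINB7 starts, shares from counts in place of TPM, an alternative chosen after seeing the data, gave 85.8% for the upstream start in MCF10Ca1a. Depth limits SERPINB4, SERPINB7, SERPINB9 and SERPINB13 most, and MCF10Ca1a was sequenced least.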
